A study of Rattus norvegicus with 10 samples.

Results

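Brush border peptidases and hydrolases were examined as 9 genes: Enpep, Anpep, Dpp4, Mme, Alpi, Lct, Mgam, Dpep1 and Ggt1. They were chosen by name, and all 9 were found by symbol among the 23422 genes of the deposited table. RNA was sequenced from distal colon epithelial cells of male Wistar Munich rats, released with EDTA. The 5 control rats (1, 2, 5, 6 and 9) ate standard chow. The 5 cholate rats (3, 4, 7, 8 and 11) ate that chow with 1% w/w sodium cholate, the salt of a primary bile acid, for 10 days. Of 12 rats, 6 had been switched to cholate after 3 days in metabolic cages, and 5 of each diet were sequenced, picked for the most concentrated RNA extract rather than at random. The strain, the sex, the single-animal cages and the isolation method were shared by both diets. The comparison asked which of these surface enzymes changed in level on the bile acid diet.

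Brush border enzymes sit in the apical membrane of enterocytes, with the catalytic domain facing the lumen. There they finish the digestion of peptides and starch, cleave peptide hormones and break down extracellular glutathione. They are best known from the small intestine and the kidney tubule. In the colon they are usually a minor part of the absorptive cell's surface, and several are found on fibroblasts, pericytes or leukocytes too.

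Of the 9 genes, 7 had enough reads to be tested, and Alpi and Lct had no read in any of the 10 libraries. Enpep, the aminopeptidase that removes acidic residues from peptide ends, fell 21.8-fold by the ratio of diet means. Dpep1, a membrane dipeptidase, rose 6.51-fold. The other 5 tested genes were not called. A gene was called where its adjusted p was under 0.01 and its level changed by more than 2-fold, both limits being those of the series design text. Over all 12385 genes tested, 3.21% were called, 1.1% higher and 2.12% lower.

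The annotated 5′ ends of the genes that the results turn on are shown first, for the called pair and for Anpep, the neutral-residue relative of Enpep. Each is 250 bases before to 50 bases after a transcript start, from RefSeq on GRCr8, read 5′ to 3′ on the gene's strand. Capitals mark matches on either strand to 1 of 5 strings. The string searched for an HNF1 half-site was GTTAAT. For a CDX site the letters were TTTAT. For a GATA site they were AGATAA. For an HNF4 site they were CAAAGTCCA. For a TATA box they were TATAAA.
Enpep, chr2:220526169-220526468, minus strand: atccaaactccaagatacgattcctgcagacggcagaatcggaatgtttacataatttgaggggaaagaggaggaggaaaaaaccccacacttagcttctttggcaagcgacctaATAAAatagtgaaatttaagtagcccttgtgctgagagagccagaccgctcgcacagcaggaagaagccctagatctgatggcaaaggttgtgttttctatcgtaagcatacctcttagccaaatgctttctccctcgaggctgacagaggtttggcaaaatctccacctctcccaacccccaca
Anpep, chr1:143195052-143195351, minus strand: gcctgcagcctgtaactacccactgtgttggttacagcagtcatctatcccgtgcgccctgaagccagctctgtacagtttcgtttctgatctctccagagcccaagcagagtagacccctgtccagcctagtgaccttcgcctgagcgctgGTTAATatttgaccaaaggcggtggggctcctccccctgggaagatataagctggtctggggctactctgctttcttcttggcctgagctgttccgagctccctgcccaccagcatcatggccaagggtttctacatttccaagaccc
Dpep1, chr19:68127908-68128207, plus strand: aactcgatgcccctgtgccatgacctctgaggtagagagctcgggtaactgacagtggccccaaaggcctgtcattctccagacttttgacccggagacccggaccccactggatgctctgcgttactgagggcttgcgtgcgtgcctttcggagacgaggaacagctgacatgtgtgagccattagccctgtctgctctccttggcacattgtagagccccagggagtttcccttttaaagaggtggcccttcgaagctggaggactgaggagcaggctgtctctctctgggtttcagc
The Enpep window held 1 match, to TTTAT on the opposite strand at -135 from the transcript start. The Anpep window held GTTAAT at -98. The Dpep1 window held none of the 5 strings. Of 27457 promoter windows of this length, 41.9% held the CDX string, 7.37% the HNF1 half-site, 11.3% the GATA string, 0.375% the HNF4 string and 14.3% the TATA box. Among the other genes, Alpi held the HNF4 string at -44. Lct held the CDX string at -116 and -44 and the GATA string at -115 and -104, the first of each in overlap. The Mgam row held the CDX string at -248 and -117, and Dpp4, Mme and Ggt1 held none of the strings. For the Mgam row the annotated exons hold coding bases only (5943 of each), and the window's last 50 bases begin with ATG. Its positions may therefore count from a coding start rather than a transcript start. The strings are a description of these windows and do not show that a factor binds there.

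Depth was 14337356 counts in the shallowest library (cholate rat 11) and 45285762 in the deepest (cholate rat 4), and 3 counts, the limit that a count of 0 allows, are 0.0616 to 0.228 CPM. CPM here are counts scaled to the TMM-effective library size. Libraries differed in the weight of long genes: genes with over 4500 coding bases stood lower than genes of up to 750 bases in cholate rats 8 and 11 and control rat 9, by 1.07, 0.75 and 0.56 on the log2 scale. In the other 7 libraries the same difference ran from 0.15 to 0.58 in the opposite direction. For each of the 9 genes that could be fitted without these 3 rats, the value without them is given too. Colon epithelium markers summed to 21630 to 36370 CPM in controls and 33940 to 52020 CPM on cholate, and all 16 were tested, with Car4, Krt20 and Car1, genes of surface colonocytes, called higher and none lower. Of 14 small intestinal markers, 9 were tested and none was called, and Si, Gata4 and Defa5 had no read. Their sum was 75.3 to 215.9 CPM in controls, highest in control rat 1, and 46.2 to 172.7 CPM on cholate, highest in cholate rat 8. Apoa1 and Slc5a1 had the highest means of the tested ones. Apoa1 had 55.0 ± 49.5 CPM in controls and 37.0 ± 43.8 on cholate, and Slc5a1 49.7 ± 12.9 and 28.1 ± 5.10 (SD, n = 5 each). Every other tested marker had a mean of at most 4.19 CPM in controls and 10.2 CPM on cholate. The diets did not overlap for 3 of the 9 tested small intestinal markers, and for 13.1% of all genes tested. Apoa4 and Fabp6 were the higher ones on cholate, with log2 changes of 2.43 (adjusted p = 0.0108, edgeR) and 2.84 (adjusted p = 0.0237, edgeR). Both were at low levels. Apoa4 had 0.520 ± 0.202 CPM in controls and 2.90 ± 2.30 on cholate (SD, n = 5 each). Fabp6 had 0.216 ± 0.219 and 1.46 ± 0.830 CPM, with a control mean inside the range of the 3-count limit. Slc5a1, the sodium glucose transporter, was the lower one, with a log2 change of -0.83 (adjusted p = 0.0237, edgeR).

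**Figure D1:**
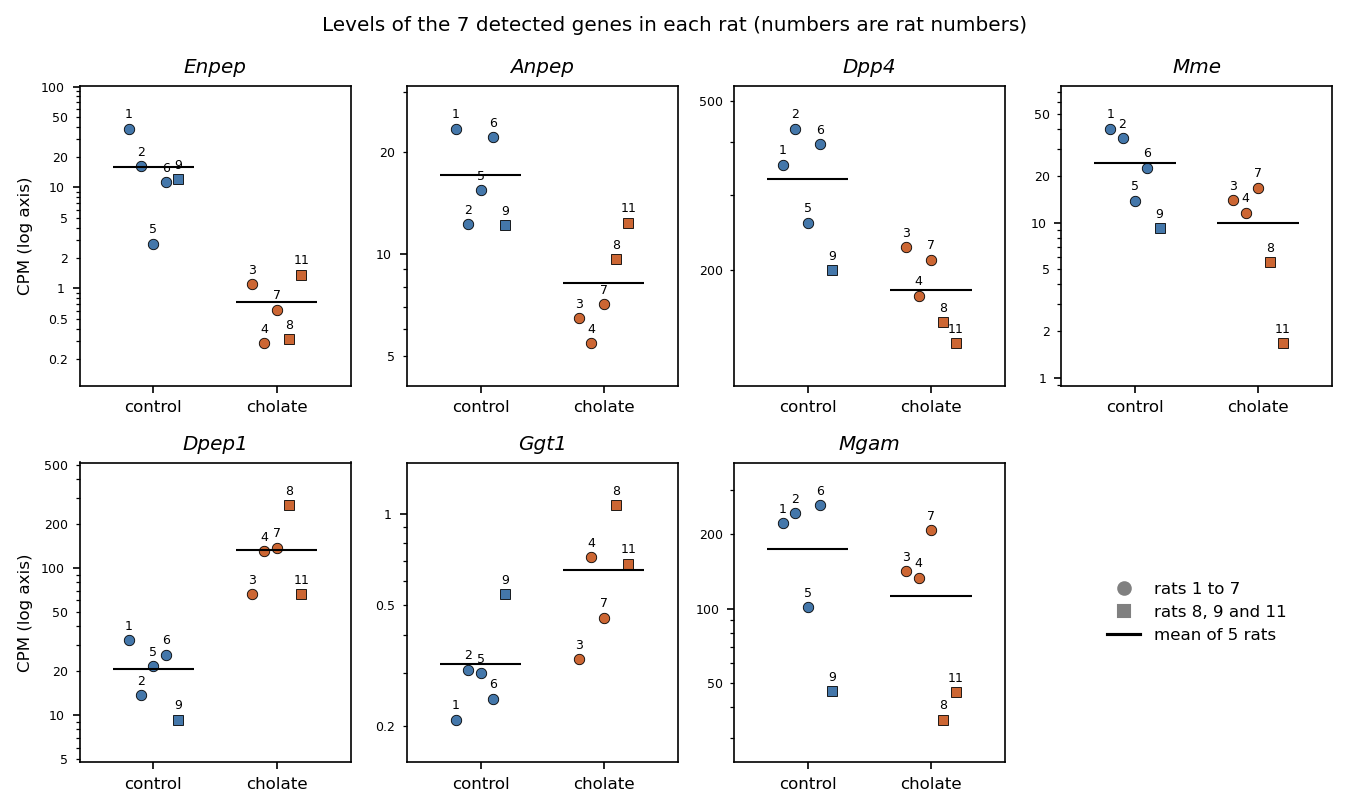
CPM on log axes of the 7 detected genes in each rat, 5 control (blue) and 5 cholate (orange), with the rat number above each point and the mean of 5 rats as a line. Squares are rats 8, 9 and 11, in which long genes stood low; the diets do not overlap for Enpep and Dpep1, and the squares are the lowest Mgam values.

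Enpep (Entrez 64017, rn6 chromosome 2, 233667253 to 233743866, minus strand) encodes glutamyl aminopeptidase, also called aminopeptidase A, which converts angiotensin II to angiotensin III. Its levels were 38.1, 16.2, 2.76, 11.3 and 12.1 CPM in control rats 1, 2, 5, 6 and 9. They were 1.11, 0.288, 0.616, 0.313 and 1.37 CPM in cholate rats 3, 4, 7, 8 and 11. Every cholate rat stood below every control rat, and control rats 1 and 5 lay far apart. The control mean was 16.1 ± 13.2 CPM (SD, n = 5) and the cholate mean 0.738 ± 0.482 CPM (SD, n = 5). The log2 change was -4.50 (SE 0.71, 95% interval -6.05 to -2.94, adjusted p = 0.00318, edgeR quasi-likelihood test). The 90 reads over the cholate rats stand against 2219 over the controls. In bulk RNA of an epithelial isolate such as this, fewer cells of a type and less RNA per cell cannot be told apart.

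The Enpep call was lost when control rat 2, cholate rat 4 or cholate rat 7 was left out, with log2 changes of -4.49, -4.25 and -4.44. It was also lost in a test against a fold of 2 (adjusted p = 0.0185, edgeR's glmTreat). Without rats 8, 9 and 11 the change was -4.71 and called (adjusted p = 0.00639). The pseudogene LOC108350158 lies inside Enpep on the opposite strand and shares no exon with it.

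Enpep is also known from pericytes. Of the 12 markers of pericytes and smooth muscle, 4 were tested, with 1 called lower and none higher, and their summed level was 91.6 to 105 CPM in controls and 25.9 to 46.9 CPM on cholate. Des, the desmin filament gene of muscle, was the called marker, at 32.2 to 50.9 CPM in controls and 2.24 to 6.15 CPM on cholate. The other tested markers were Notch3 (47.0 ± 10.4 CPM in controls and 20.9 ± 9.35 on cholate, adjusted p = 0.0222), Myh11 (10.6 ± 1.42 and 5.83 ± 1.22 CPM, adjusted p = 0.0138) and Pdgfrb (0.502 ± 0.321 and 0.625 ± 0.428 CPM, adjusted p = 0.769), all SD over 5 rats and edgeR. The log2 changes of Notch3 and Myh11 were negative and that of Pdgfrb, a standard pericyte marker, was 0.31. Rgs5, Kcnj8 and Abcc9, also pericyte genes, were at or near 0, with no library above 0.115 CPM. Acta2, a smooth muscle gene, had 0 or 1 read in each control. It had 9 reads (0.185 CPM) in cholate rat 4, 8 reads (0.607 CPM) in cholate rat 11 and 0 in the other cholate rats. Control rat 1 had the highest small intestinal marker sum of the controls as well as the highest Enpep level. Apoa1 and Slc5a1 had the highest means within that sum, so its peak need not reflect the whole list. Fibroblast markers summed to 6.42 to 9.85 CPM in controls and 1.02 to 5.71 CPM on cholate, with 2 of 10 tested, none called, and Col1a2 at 0. Of the tested ones, Col1a1 had 2.95 ± 0.79 CPM in controls and 0.47 ± 0.31 on cholate (log2 change -2.56, adjusted p = 0.01, edgeR). Dpt had 3.77 ± 1.69 and 1.63 ± 1.52 CPM (log2 change -1.26, adjusted p = 0.36, edgeR), all SD over 5 rats. Endothelial and blood markers summed to 12.98 to 28.0 CPM in controls and 8.14 to 12.6 CPM on cholate, with 4 of 11 tested and Vwf, the endothelial clotting factor, called lower, a call lost in 5 of the 10 fits without 1 rat. The part of Des, Vwf and the stromal markers in the Enpep result was not tested. Leukocytes can carry Anpep, Dpp4 and Mme. Markers of T and NK cells summed to 12.2 to 18.6 CPM in controls and 12.8 to 25.7 CPM on cholate, with 6 of 12 tested. Those of B and plasma cells summed to 1.31 to 5.33 and 1.57 to 5.89 CPM, with 1 of 8 tested, and those of macrophages, dendritic cells and granulocytes to 36.6 to 60.9 and 50.4 to 67.5 CPM, with 10 of 14 tested and Mpo at 0. None of these leukocyte markers was called.

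Anpep (Entrez 81641, rn6 chromosome 1, 141561364 to 141604249, minus strand) encodes aminopeptidase N, which removes neutral residues from peptide ends. Its levels were 23.4, 12.2, 15.4, 22.1 and 12.1 CPM in control rats 1, 2, 5, 6 and 9. They were 6.46, 5.46, 7.12, 9.64 and 12.4 CPM in cholate rats 3, 4, 7, 8 and 11. Cholate rat 11 alone reached the control range, just above control rats 2 and 9. The means were 17.0 ± 5.37 and 8.21 ± 2.79 CPM (SD, n = 5 each), with a log2 change of -1.06 (SE 0.28, 95% interval -1.68 to -0.45). Its adjusted p of 0.0298 in the edgeR test did not reach the limit. Without rats 8, 9 and 11 Anpep was called lower, with a log2 change of -1.50 (adjusted p = 0.00308 in the edgeR fit of the other 7 rats).

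The pair of aminopeptidases did not move by the same amount. The log2 ratio of Enpep to Anpep reads within a library does not depend on scaling between libraries. The controls had ratios of 0.71 (rat 1), 0.40 (rat 2), -2.47 (rat 5), -0.96 (rat 6) and 0.00 (rat 9). The cholate rats had ratios of -2.53 (rat 3), -4.20 (rat 4), -3.50 (rat 7), -4.81 (rat 8) and -3.14 (rat 11). These ratios were taken after 0.5 was added to each count. Control rat 5, the lowest control, lay just above cholate rat 3, the highest cholate rat, so the diets did not overlap, by a narrow margin. The mean ratio was -0.47 ± 1.29 in controls and -3.64 ± 0.89 on cholate (SD, n = 5 each), a difference of -3.17 (p = 0.00794, exact two-sided permutation test, the smallest p that 5 against 5 can give). With 5 added to each count instead, the difference was -2.81 (p = 0.0159, exact permutation test). That p is above the smallest possible, so the diets then overlapped. Of 3 pairs planned, Enpep to Anpep was the only one tested, so the p needed no adjustment for the number of pairs. The genes were chosen with earlier results of these data known, and Enpep alone did not overlap between diets. The p is therefore no separate support for the Enpep result. Dpep1 to Ggt1 and Lct to Mgam had too few reads in Ggt1 and Lct for a ratio, which needed 10 counts in 5 libraries. Without rats 8, 9 and 11 the difference was -2.83 (p = 0.0571, exact permutation test), the smallest p that 4 rats against 3 can give.

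Dpp4 (Entrez 25253, rn6 chromosome 3, 48291055 to 48372672, minus strand) encodes dipeptidyl peptidase 4, which cuts dipeptides after proline or alanine and inactivates incretin hormones. Its levels were 354, 430.6, 258.8, 395.9 and 199.8 CPM in control rats 1, 2, 5, 6 and 9. They were 226.3, 173.9, 211.7, 150.8 and 134.5 CPM in cholate rats 3, 4, 7, 8 and 11. Control rat 9 fell within the cholate range, and the other 4 controls stood above all cholate rats. The means were 327.8 ± 96.2 and 179.4 ± 39.1 CPM (SD, n = 5 each), and the log2 change was -0.87 (SE 0.23, 95% interval -1.37 to -0.37, adjusted p = 0.0281, edgeR). Without rats 8, 9 and 11 the adjusted p was 0.00974 at a log2 change of -0.79, still inside the fold limit. With the length trend of each library as a covariate the log2 change shrank to -0.55 (adjusted p = 0.00687, edgeR), also not called.

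Mme (Entrez 24590, rn6 chromosome 2, 153799203 to 153880910, plus strand) encodes neprilysin, an endopeptidase that cuts small peptides beside hydrophobic residues. Its levels were 40.3, 35.1, 13.9, 22.6 and 9.20 CPM in control rats 1, 2, 5, 6 and 9. They were 13.9, 11.6, 16.8, 5.57 and 1.67 CPM in cholate rats 3, 4, 7, 8 and 11. The diets overlapped through control rats 5 and 9, and rats 8, 9 and 11 were the lowest of their diets. The log2 change was -1.28 (SE 0.56, 95% interval -2.52 to -0.04, adjusted p = 0.159, edgeR). It was -0.96 and not called without rats 8, 9 and 11 (adjusted p = 0.0559 in the edgeR fit of the other 7 rats), and with the length trend of each library as a covariate it was -0.58. It was called, at -1.18 (adjusted p = 0.00565, edgeR), when control rat 5 was left out as well, which has the lowest Mme level of control rats 1, 2, 5 and 6 and is not among the 3 libraries that stand apart.

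Dpep1 (Entrez 94199, rn6 chromosome 19, 55973447 to 55998830, plus strand) encodes the renal dipeptidase, which splits cysteinylglycine and converts leukotriene D4 to E4. Its levels were 32.3, 13.6, 21.4, 25.6 and 9.31 CPM in control rats 1, 2, 5, 6 and 9. They were 66.0, 130.2, 137.1, 266.0 and 66.4 CPM in cholate rats 3, 4, 7, 8 and 11. The lowest cholate rat stood above the highest control, and cholate rat 8 was the highest of all. The means were 20.5 ± 9.21 and 133.2 ± 81.6 CPM (SD, n = 5 each). The log2 change was 2.70 (SE 0.46, 95% interval 1.70 to 3.70, adjusted p = 0.0043, edgeR).

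The Dpep1 call was lost when control rat 2, 5 or 6 or cholate rat 4 or 7 was left out, with log2 changes between 2.58 and 2.79, and in the test against a fold of 2 (adjusted p = 0.0479, glmTreat). Without rats 8, 9 and 11 the change was 2.28 and called (adjusted p = 0.00197). Cholate rat 8, highest for Dpep1, also had the highest small intestinal marker sum of the cholate rats, a sum in which Apoa1 and Slc5a1 had the highest means. The part of the small intestinal markers in the Enpep and Dpep1 results was not tested. Sult5a1 overlaps the span of Dpep1 on the opposite strand and shares no exon with it.

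Ggt1 (Entrez 116568, rn6 chromosome 20, 14019723 to 14045781, minus strand) encodes gamma-glutamyltransferase 1, which opens extracellular glutathione breakdown and gives Dpep1 its cysteinylglycine substrate. It was near the detection limit, with 41 reads over the controls and 87 over the cholate rats. Its levels were 0.210, 0.307, 0.298, 0.246 and 0.544 CPM in control rats 1, 2, 5, 6 and 9. They were 0.332, 0.719, 0.455, 1.06 and 0.683 CPM in cholate rats 3, 4, 7, 8 and 11. Control rat 9 reached the cholate range, and the log2 change was 1.02 (SE 0.40, 95% interval 0.14 to 1.89, adjusted p = 0.116, edgeR). With the length trend as a covariate it was 0.63. Ggt1 fell under the filter on low counts when rats 8, 9 and 11 were left out.

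The row with the symbol Mgam (Entrez 312272, rn6 chromosome 4, 69018592 to 69114027, plus strand) carries a doubtful label. The annotation deposited with the table gives its transcript product as maltase-glucoamylase and its protein product, a low-quality model, as a probable maltase-glucoamylase 2, and the RefSeq gene table for GRCr8 names this Entrez entry Mgam2. The entry named Mgam there is LOC103690059 in the deposited table (Entrez 103690059, chromosome 4, 68849014 to 68996940, plus strand), 21651 bases away. Maltase-glucoamylase releases glucose from starch fragments, and how reads were shared between such neighbouring relatives is not stated, so both levels are uncertain.

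The Mgam row had 220.7, 242.3, 101.3, 260.9 and 46.4 CPM in control rats 1, 2, 5, 6 and 9. It had 141.7, 133.2, 207.0, 35.6 and 45.9 CPM in cholate rats 3, 4, 7, 8 and 11. Rats 8, 9 and 11 were the lowest of all 10 whatever the diet. The means were 174.3 ± 94.8 and 112.7 ± 71.7 CPM (SD, n = 5 each), with a log2 change of -0.63 (SE 0.55, 95% interval -1.84 to 0.58, adjusted p = 0.501, edgeR). Leaving out rats 8, 9 and 11 gave a change of -0.33 (adjusted p = 0.427, edgeR), and without rat 5 as well it was -0.56. With the length trend as a covariate the direction turned, to 0.28 (adjusted p = 0.214, edgeR). None of these fits called the row. LOC103690059, added after its values were seen, ran from 175.6 to 340.4 CPM in controls and from 146.9 to 235.2 CPM on cholate. It was not called either (log2 change -0.62, SE 0.21, adjusted p = 0.0698, edgeR). Its coding length was 10683 bases and its coefficient of variation in controls 23.5%, beside 5943 bases and 54.4% for the Mgam row.

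**Figure D2:**
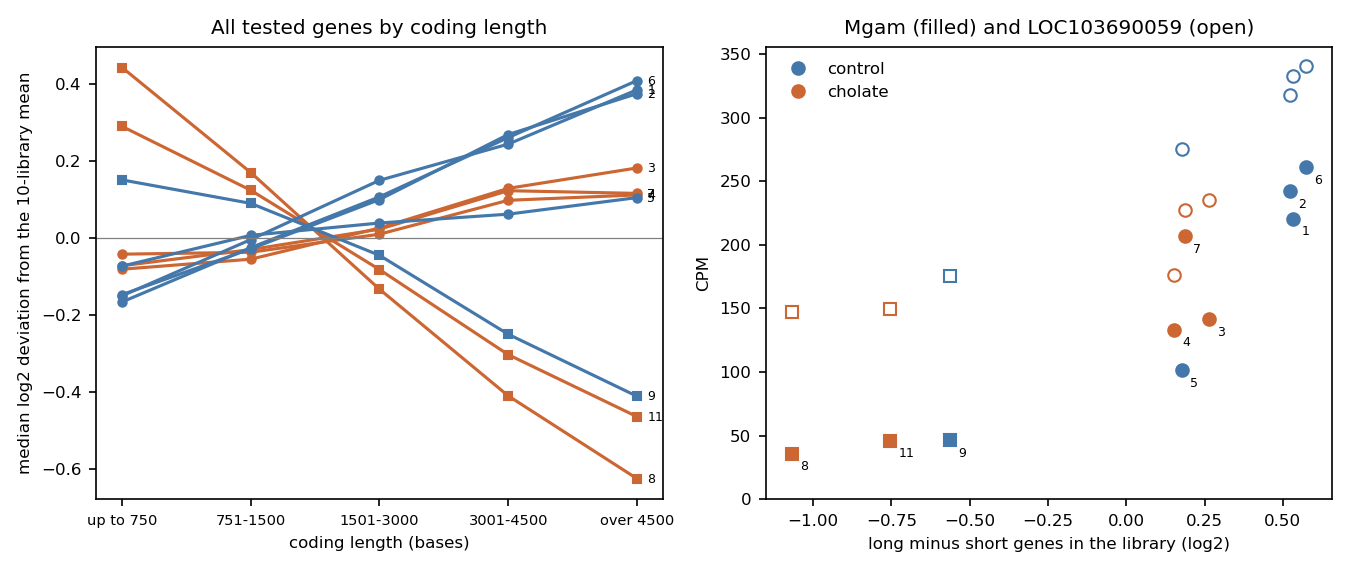
Left, the median log2 deviation of tested genes from their mean over 10 libraries, by coding length in bases, 1 line per rat (blue control, orange cholate; squares are rats 8, 9 and 11). Right, CPM of the Mgam row (filled) and LOC103690059 (open) against the library's difference of long minus short genes on the log2 scale; the filled squares lie between 35.6 and 46.4 CPM, below all other filled points.

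Alpi (Entrez 24197, rn6 chromosome 9, 94197616 to 94201910, minus strand), the intestinal alkaline phosphatase, had 0 reads in all 10 libraries. Lct (Entrez 116569, rn6 chromosome 13, 44998414 to 45040593, minus strand), the lactase of the brush border, had 0 reads in all 10 libraries too. A count of 0 allows a level of up to 0.0616 CPM in the deepest library and 0.228 CPM in the shallowest, for counting error alone. No change could be tested for either gene.

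Only length-normalised levels compare 1 gene with another, and these were computed as counts per coding base, scaled to the same total in each library (TPM). In controls the order of means was Dpp4 (146.1 ± 50.6), Mgam (30.6 ± 17.5), Dpep1 (17.2 ± 8.75), Mme (11.2 ± 6.84), Anpep (6.03 ± 2.28), Enpep (5.93 ± 5.34) and Ggt1 (0.238 ± 0.0692), each in TPM (SD, n = 5). Dpp4 stood above Mgam in every pairing of control rats, and Enpep above Ggt1. The ranges of Mgam and Dpep1, Dpep1 and Mme, Mme and Anpep, and Anpep and Enpep overlapped. On cholate Dpep1 had the highest mean of the 9, at 97.5 ± 47.7 TPM (SD, n = 5) against 74.7 ± 24.6 for Dpp4, with overlapping ranges. Dpp4 stood above Dpep1 in cholate rats 3 (103.8 against 56.6 TPM) and 11 (49.1 against 45.3). Dpep1 stood above Dpp4 in rats 4 (112.8 against 80.6), 7 (109.3 against 90.3) and 8 (163.4 against 49.6). Cholate rats 8 and 11 are both libraries in which long genes stood low, and Dpp4 is the longer of the pair. The part of that trend in the order of the pair was not tested. Enpep had the lowest mean of the detected genes on cholate, at 0.245 ± 0.158 TPM, near the 0.445 ± 0.149 of Ggt1, with overlapping ranges.

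**Figure D3:**
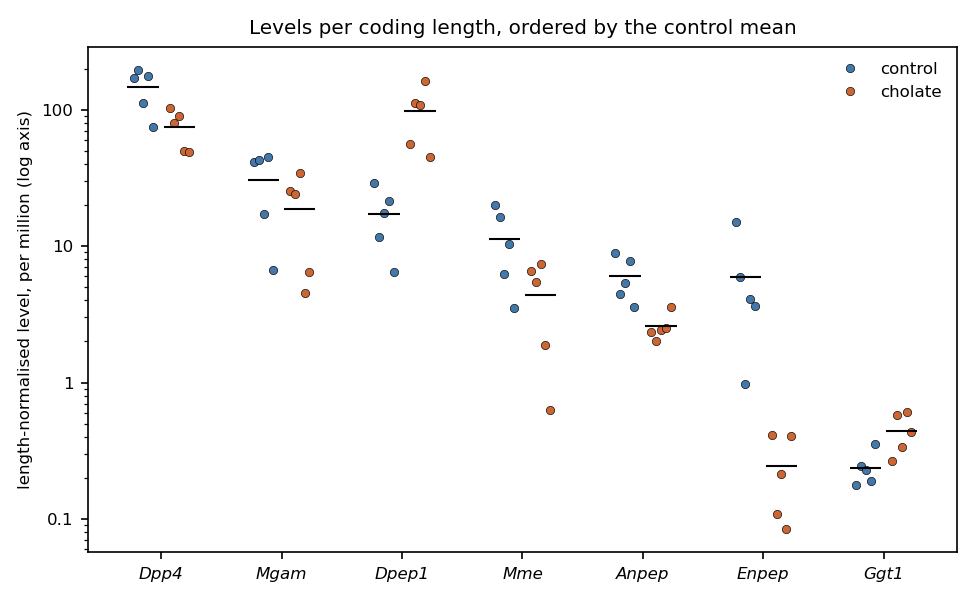
Level per coding length (TPM) on a log axis, for the 7 detected genes ordered by the control mean; points are rats (5 control in blue, 5 cholate in orange) and lines are means. Dpp4 has the highest mean in controls (146.1) and Dpep1 on cholate (97.5), where Dpp4 is still the higher of the pair in rats 3 and 11.

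Of the 7 tested genes, 1 was called higher and 1 lower, against 1.1% and 2.12% of all genes tested. With so few genes and their choice by name with earlier results known, this count is a description. Of the 7, 5 had a negative and 2 a positive log2 change, with a median of -0.87 against -0.01 over all genes tested. The 5 lower genes had coding lengths above those of 75% (Mme) to 97.2% (Mgam) of all genes tested. With the length trend as a covariate, Enpep was -4.32, Anpep -1.20, Mme -0.58 and Dpp4 -0.55. In that fit the Mgam row was 0.28, Ggt1 0.63 and Dpep1 2.56. The part of coding length in the direction of the 5 was not tested. The diets did not overlap in 2 of the 7, and in 13.1% of all genes tested (6.8% of all genes without overlap and lower on cholate). Spread within a diet was widest for Enpep, whose coefficient of variation was 82.2% in controls, and narrowest for Dpp4, at 29.4% in controls and 21.8% on cholate.

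Among 23 other surface peptidases, 15 were tested, with 1 called higher and 1 lower and a median log2 change of -0.10. Xpnpep2, a membrane aminopeptidase that frees a residue ahead of proline, had 0.958 to 1.83 CPM in controls and 3.53 to 7.39 CPM on cholate. It rose by 1.83 on the log2 scale (SE 0.26, adjusted p = 0.00216, edgeR). Naaladl1, a peptidase of the ileal brush border, had 16.9 to 29.5 CPM in controls and 10.4 to 13.5 CPM on cholate. It fell by 1.05 on the log2 scale (SE 0.17, adjusted p = 0.00363, edgeR). Neither gene overlapped between diets. The Naaladl1 call was lost without control rat 1, 2 or 6 or cholate rat 4 or 7, with log2 changes between -1.05 and -0.98, and both calls were lost in the test against a fold of 2. Tmprss15, the enteropeptidase that activates trypsinogen, was among 4 of these 23 genes with no read in any library, with Cpo, Folh1 and Trhde.

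Among 14 other surface glycosidases, phosphatases and lipases, 13 were found and 8 tested, and none was called higher or lower. Nt5e, the ectonucleotidase that makes adenosine, had the smallest adjusted p of these (0.0124, edgeR). It had 1.98 to 9.79 CPM in controls and 0.501 to 1.71 CPM on cholate, a log2 change of -2.40 (SE 0.51). DESeq2 and the fits that added the length trend or left out rats 5, 8, 9 and 11 each called 1 gene of this list. Si, the sucrase-isomaltase of the small intestine, had no read in any library.

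**Figure D4:**
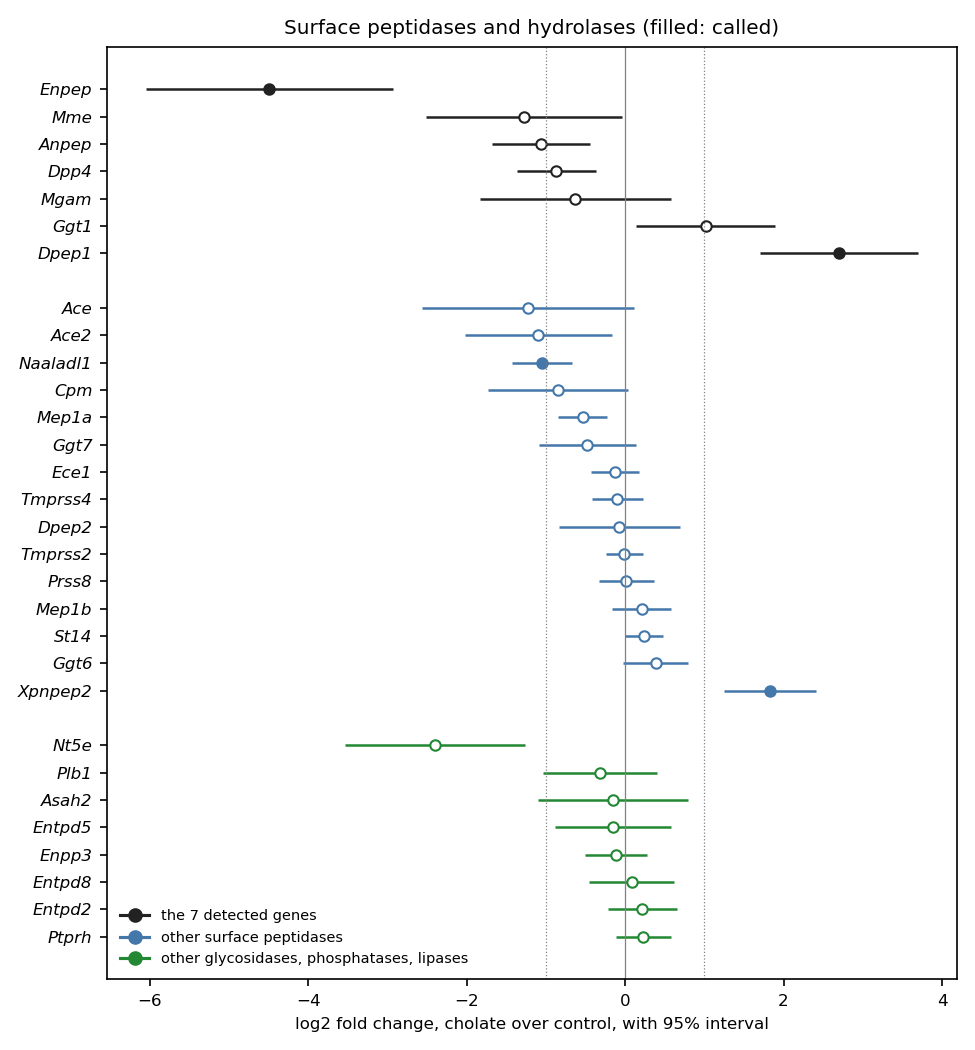
Log2 fold change of cholate over control with its 95% interval for the 7 detected genes (black), 15 other surface peptidases (blue) and 8 other surface glycosidases, phosphatases and lipases (green); filled points are called and dotted lines mark the fold limit. Enpep (-4.50) and Dpep1 (2.70) stand at the ends.

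Inside the cell, 25 cytosolic and lysosomal peptidases were all tested, with 1 called higher, none lower and a median log2 change of 0.11. Ctsl, the lysosomal cysteine protease cathepsin L, had 82.8 to 115 CPM in controls and 172.9 to 290.5 CPM on cholate. It rose by 1.19 on the log2 scale (SE 0.17, adjusted p = 0.00206, edgeR). Of 19 genes of glutathione and the gamma-glutamyl cycle, 17 were tested, with 1 called higher, none lower and a median of 0.35. Gss, the synthetase of the last step of glutathione synthesis, had 105 to 170.3 CPM in controls and 229.7 to 347.6 CPM on cholate, a log2 change of 1.15 (SE 0.18, adjusted p = 0.00291, edgeR). The Gss call was lost without control rat 1, 2 or 6 (adjusted p 0.011, 0.0107 and 0.0108, edgeR). It was also lost with the length trend as a covariate, where the log2 change was 0.92. In the test against a fold of 2, neither Gss nor Ctsl was called.

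Of 24 transcription factors known for intestinal brush border genes, 19 were tested, none was called and the median log2 change was -0.24. Isx, a homeobox factor of the gut epithelium, had the smallest adjusted p (0.015, edgeR), with 12.0 to 20.1 CPM in controls and 0.123 to 4.63 CPM on cholate. Its log2 change was -2.81 (SE 0.63), and 3 genes of the list, Isx among them, were called with the length trend as a covariate. DESeq2 (adjusted p = 3.73e-05) and limma-voom (adjusted p = 0.00688) called Isx as well. So did the fit without rats 8, 9 and 11 and 2 of the 10 fits without 1 rat. It was not called without rats 5, 8, 9 and 11, in the test against a fold of 2 or under other scalings. Of 18 genes of the brush border scaffold, 17 were tested and none was called, with a median of 0.31. Vil1, the actin bundler villin, had the smallest adjusted p (0.00692, edgeR) at a log2 change of 0.72, with 241.1 to 343.4 CPM in controls and 393.0 to 582.9 CPM on cholate.

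The genes most like each called gene were sought among 9765 genes with a symbol and a mean of at least 5 CPM, by the root mean square difference of centred log2 CPM over the 10 libraries. For Enpep these were Sgce, the epsilon subunit of sarcoglycan (0.76 log2 units apart), Col17a1, a collagen of hemidesmosomes (0.78), and Speg, a kinase of striated muscle (0.80). Sgce had 15.6 ± 7.05 CPM in controls and 0.901 ± 0.791 on cholate (SD, n = 5 each). For Dpep1 they were Fabp2, the intestinal fatty acid binding protein (0.38 log2 units apart), Serpina3n, a serine protease inhibitor (0.51), and Fa2h, a fatty acid hydroxylase (0.63). Fabp2 had 18.1 ± 5.48 CPM in controls and 91.7 ± 45.8 on cholate (SD, n = 5 each). All 6 were called with all rats, in the direction of the gene they resemble, which follows from how they were sought. Serpina3n lost its call in 7 of the 10 fits without 1 rat and Fabp2 in 1.

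**Figure D5:**
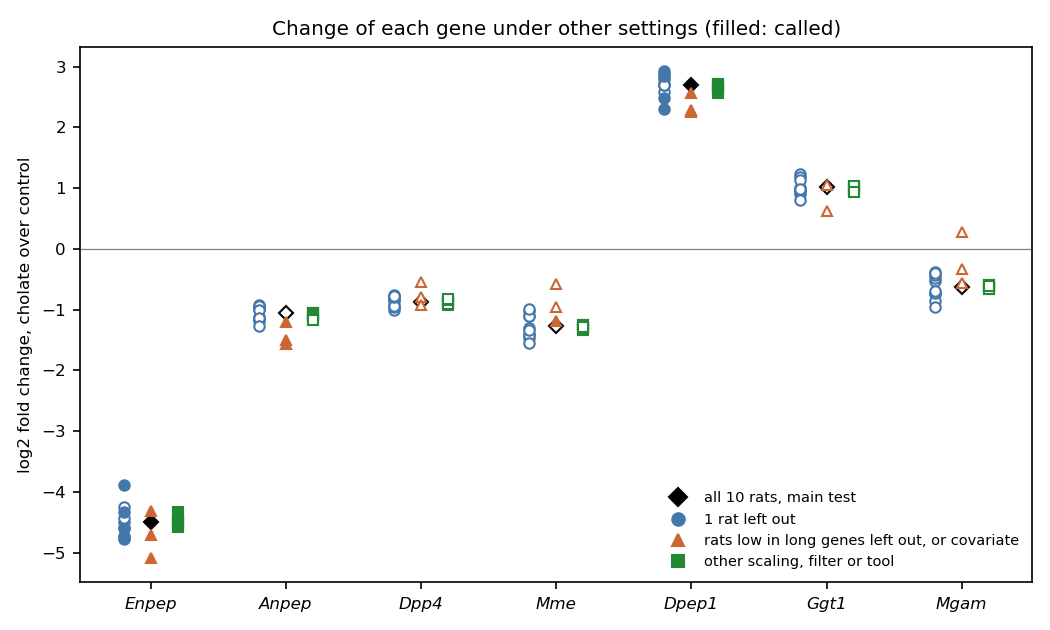
Log2 fold change of the 7 detected genes over all settings that change it: all rats (diamonds), 1 rat left out (blue), rats 8, 9 and 11 left out, with or without rat 5, or the length trend as a covariate (orange), and other scalings, filters and tools (green); filled points are called. Enpep stays between -5.09 and -3.88 and Dpep1 between 2.25 and 2.92, while the Mgam row crosses 0 once, to 0.28.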

How the data were processed

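RNA was sequenced from distal colon epithelial cells of 10 rats, 5 per diet. Per the submitters' processing notes, the tools were bcl2fastq 1.8.4, BWA 0.7.12-r1039 and edgeR 3.16.2, and the build was rn6. Libraries were strand-specific per the labels. How reads were counted, and whether by strand, is not stated there. The deposited table holds the authors' raw counts per gene, which were used for every test. Beside them stands the authors' normalized signal, TMM-scaled per the series design text and used here only for an alternative of the Enpep to Anpep ratio. The other deposited columns are lengths and annotation coordinates in bases. The effective length equalled the union of coding exons in 100% of genes, so levels per length use the coding length. Of 23422 genes, 6442 had no read.

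In R 4.3.3, low counts were removed with filterByExpr, TMM factors computed and diets compared by the quasi-likelihood F test of edgeR 4.0.16 with robust estimation, diet as the only term and Benjamini-Hochberg adjustment over 12385 genes. Each approximate SE divides the size of the log2 change by the root of its F statistic, and intervals are at 95%. Count floors and intervals cover counting error or the spread between rats as stated. Alternatives used DESeq2 1.42.0, limma 3.58.1, other scalings and filters, and leaving out rats. The fits without rats 8, 9 and 11, without rats 5, 8, 9 and 11, and with the length trend as a covariate were chosen after seeing the data, and no separate criterion sets rat 5 apart. The method was tested on simulated data. The simulated counts held no length trend, so that test does not cover the trend seen in rats 8, 9 and 11. The exact permutation test used scipy 1.17.1.

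The 9 genes and all lists were chosen with earlier results of these data known. The text names all 9 genes, up to 4 called genes of each further list with the smallest adjusted p, or the gene with the smallest where none was called, and the 3 genes of most similar profile to each called gene. Single markers are named where called or at 0. LOC103690059, Rgs5, Kcnj8, Abcc9, Acta2, Notch3, Myh11, Pdgfrb, Col1a1, Dpt, Apoa1, Apoa4, Fabp6, Slc5a1 and the other list genes with no read were named after their values were seen. Promoter windows on GRCr8 were matched by Entrez number for 9 of 9 genes.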

Additional observations from a re-analysis of the deposited data

Results flagged for a closer look

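For the 7 detected enzymes, LOC103690059, the 7 genes named from the further enzyme, factor and scaffold lists and Des, 32 groups of 5 rats were looked at for a sample far from the others, and 1 was found. Ggt1 in control rat 9 stood at 0.544 CPM against 0.307 CPM in the next control, a gap of 0.712 of the group's range, over the limit of 0.71 for 5 samples. Chance gives such a gap in about 1 in 20 groups. Control rat 9 is also 1 of the 3 libraries in which long genes stood low, and the value rests on 10 reads. The part of either in this value was not tested.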

How the results depend on the processing

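No paired analysis was possible because each rat ate 1 diet and no rat number is shared between diets. Under RLE scaling, upper quartile scaling, library size alone and no filter on low counts, the 7 tested genes had the same direction and call as with TMM, and 401, 410, 474 and 377 genes were called, in that order, against 398. Restricted to genes averaging 5 CPM or more, the fit called 242 genes and 1 other surface peptidase. DESeq2 called 788 genes, Anpep (-1.06), 1 surface glycosidase, phosphatase or lipase and 2 transcription factors, and limma-voom called 1 transcription factor. A test against a fold of 2 (glmTreat) left 50 genes called and 0 of the 9 genes: Enpep (-4.50) had an adjusted p of 0.0185 and Dpep1 (2.70) of 0.0479. It called 0 in the lists of other surface peptidases, cytosolic and lysosomal peptidases, and glutathione. At adjusted p under 0.05 with no fold limit, 1704 genes (13.8%) were called, 4 of the 9 genes, 1 surface glycosidase, phosphatase or lipase, 10 cytosolic and lysosomal peptidases, 2 glutathione genes, 3 transcription factors and 3 scaffold genes.

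Without rats 8, 9 and 11, 840 genes were called, with Anpep (-1.50), 3 cytosolic and lysosomal peptidases, 2 glutathione genes and 2 transcription factors, and the Enpep to Anpep ratio differed by -2.83. Without rats 5, 8, 9 and 11, 1003 genes and 4 of the 9 were called, with Anpep (-1.57), Mme (-1.18), 1 surface glycosidase, phosphatase or lipase, 3 cytosolic and lysosomal peptidases, 2 glutathione genes and 2 transcription factors. The ratio then differed by -3.46 (p = 0.1, exact permutation test, the smallest that 3 against 3 can give). With the length trend as a covariate, 1239 genes were called, with Anpep (-1.20), 1 surface glycosidase, phosphatase or lipase, 2 cytosolic and lysosomal peptidases, 2 glutathione genes, 3 transcription factors and 1 scaffold gene, and the Mgam row reversed to 0.28. The cause of these changes was not tested.

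With 1 rat left out at a time, Enpep ran from -4.77 to -3.88 (adjusted p 0.00194 to 0.0112) and Dpep1 from 2.31 to 2.92 (0.00384 to 0.0159). Between 0 and 2 of the 9 genes were called, 168 genes (without control rat 2) to 450 genes (without control rat 9) in all, 1 to 2 other surface peptidases, 1 to 2 cytosolic and lysosomal peptidases, 0 to 1 glutathione genes and 0 to 1 transcription factors. Leaving out control rats 1 and 6 in turn gave 192 and 200 genes, and cholate rats 4 and 7 in turn gave 207 and 221. Depth limits Ggt1, with 6 to 35 reads a library, and leaves Alpi and Lct untested.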
